A study of Mus musculus with 6 samples.

Results

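Glycolysis, the export of its end product lactate, and the response to low oxygen that controls both are represented here by 34 genes, taken by their names and not by any measured value. They are 16 glycolytic enzyme genes, 5 genes of glucose and lactate transport and lactate dehydrogenase, 5 regulators at phosphofructokinase and pyruvate dehydrogenase, and 8 targets of the hypoxia-inducible factors. All 34 were among the 15238 genes of the deposited gene table. Aldoa had 2 gene identifiers there, so counts of members are over 35 rows, 17 of them glycolytic. Cells were sorted from the intestines of pups on postnatal day 9 as positive for podoplanin and negative for CD45, EpCAM and CD31, and each sort gave bulk RNA for a stranded library. Replicates 4, 9 and 10 came from DdblGata1 pups, which lack eosinophils because a regulatory site in the promoter of the blood-lineage factor Gata1 is deleted in the germ line. Replicates 1, 3 and 4 came from wild-type pups. Both groups were of the Balb/c strain, and the sources used here give no sex, litter or pooling. The deletion is not limited to the gut, and the sorted fibroblasts carry it too.

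Glycolysis splits glucose into pyruvate, which lactate dehydrogenase can reduce to lactate for export by monocarboxylate carriers, or which pyruvate dehydrogenase can pass to the mitochondria. When oxygen is short, the hypoxia-inducible factors escape hydroxylation and degradation and raise transcription of most glycolytic enzyme genes, of glucose and lactate carriers, and of kinases that shut pyruvate dehydrogenase. In mesenchymal cells the same factors also act on collagen prolyl hydroxylases, which prepare collagen for secretion.

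The gene table held 28110454, 29101736 and 30993472 counts in DdblGata1 replicates 4, 9 and 10, and 31018196, 30210644 and 31210800 in wild-type replicates 1, 3 and 4. Gata1 transcripts had an estimated count of 0 in every DdblGata1 library, against 1 in wild-type replicate 1 and 0 in wild-type replicates 3 and 4, so they do not check the labels. Fibroblast markers were abundant, with a summed level over 8 genes of 106000 to 147000 CPM (counts scaled to a common library size) in DdblGata1 and of 108000 to 153000 CPM in wild-type libraries. Of 6 eosinophil markers Ccr3 alone was in the gene table, at 0.165 to 0.258 CPM in DdblGata1 and 0.36 to 1.1 CPM in wild-type libraries. A pair of libraries stood apart. Wild-type replicate 1 had 525 CPM summed over 7 epithelial markers, against 106 to 138 CPM in DdblGata1 libraries and 95.9 to 109 CPM in the other wild-type libraries. DdblGata1 replicate 10 held the highest value of 24.3% and the lowest of 23.6% of all genes, and wild-type replicate 1 the highest of 24.9% and the lowest of 23.8%. No other library exceeded 16.2% in either. Results on the glycolytic genes are therefore also given without each of them. The labels do not say whether each library came from a separate animal, and p-values measure only the spread between these libraries. In bulk RNA, fewer cells of a type and less RNA per cell cannot be told apart.

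The core of the hypoxia response element, ACGTG or GCGTG, was looked for on both strands in the 250 bases before each annotated start in RefSeq (GRCm38.p6), and overlapping matches were counted separately. A window was found for 33 of the 34 genes, and 30 of these genes had a match in at least 1 of their windows. Matches were present in 38 of 47 member windows (80.9%), against 38.6% of the 32851 windows of all genes. Member windows were also richer in CpG, with a median of 14 CpG per window against 6 over all windows, and both motifs contain a CpG. By role, 13 of 16 glycolytic genes, 5 of 5 genes of transport and lactate dehydrogenase, 5 of 5 regulators and 7 of 7 hypoxia targets with a window had a match. Gpi1, Tpi1 and Eno2 had none. Counts per gene have no such count over all genes beside them, and a gene with several windows has more places for a match. The windows of Pgk1 (chrX:106186850-106187099, + strand), Pgam1 (chr19:41911621-41911870, + strand) and Gapdh (chr6:125165774-125166023, - strand) are shown as examples with matches among the glycolytic genes lower by value in DdblGata1 libraries. Gpi1 and Tpi1, without a match, were lower by value too. Eno3 (chr11:70656926-70657175, + strand) is shown as the member with the lowest p, Ldha (chr7:46845554-46845803, + strand) for its 5 matches, and Bnip3 (chr7:138909507-138909756, - strand) as a hypoxia target outside metabolism. Each is written 5′ to 3′ in the direction of the gene, with matches in capitals.
Pgk1: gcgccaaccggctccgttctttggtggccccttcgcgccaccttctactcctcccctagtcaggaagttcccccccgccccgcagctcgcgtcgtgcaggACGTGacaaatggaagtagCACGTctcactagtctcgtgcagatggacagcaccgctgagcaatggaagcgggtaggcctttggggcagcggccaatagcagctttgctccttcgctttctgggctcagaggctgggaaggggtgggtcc
Pgam1: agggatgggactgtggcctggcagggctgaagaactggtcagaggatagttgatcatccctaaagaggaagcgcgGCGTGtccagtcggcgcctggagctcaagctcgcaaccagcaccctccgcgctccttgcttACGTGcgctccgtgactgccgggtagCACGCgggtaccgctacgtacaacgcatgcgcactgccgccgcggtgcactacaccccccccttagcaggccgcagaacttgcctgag
Gapdh: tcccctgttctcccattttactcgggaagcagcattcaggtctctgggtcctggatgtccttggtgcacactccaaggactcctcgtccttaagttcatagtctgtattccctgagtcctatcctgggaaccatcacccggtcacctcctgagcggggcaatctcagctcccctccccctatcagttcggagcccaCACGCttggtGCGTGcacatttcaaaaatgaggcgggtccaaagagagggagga
Eno3: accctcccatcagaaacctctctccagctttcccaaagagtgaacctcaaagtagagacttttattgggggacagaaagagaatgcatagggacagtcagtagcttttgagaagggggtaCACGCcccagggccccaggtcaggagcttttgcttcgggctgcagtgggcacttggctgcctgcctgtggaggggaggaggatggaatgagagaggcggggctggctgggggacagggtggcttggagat
Ldha: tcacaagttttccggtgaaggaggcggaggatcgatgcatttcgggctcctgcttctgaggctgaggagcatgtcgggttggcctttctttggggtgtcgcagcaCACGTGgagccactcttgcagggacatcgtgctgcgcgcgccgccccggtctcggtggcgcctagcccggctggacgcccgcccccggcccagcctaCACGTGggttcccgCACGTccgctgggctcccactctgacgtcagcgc
Bnip3: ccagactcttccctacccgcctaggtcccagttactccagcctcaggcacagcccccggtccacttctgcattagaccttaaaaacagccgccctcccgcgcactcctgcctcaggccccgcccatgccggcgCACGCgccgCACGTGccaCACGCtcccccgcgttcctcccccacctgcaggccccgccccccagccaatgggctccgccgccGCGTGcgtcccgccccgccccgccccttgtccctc
A match describes the letters of the window only.

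Across the 35 member rows, no gene passed the edgeR quasi-likelihood test adjusted over all 15238 genes, and neither did any other gene (0.0% called). The adjusted p of the members ranged from 0.384 to 0.99. At an unadjusted p under 0.05, 1 member was higher in DdblGata1 than in wild-type libraries (Eno2) and 2 were lower (Eno1 and Eno3), against 919 of all genes higher (6.03%) and 645 lower (4.23%). DESeq2 called 214 of all genes (0.932% higher, 0.473% lower), among them Eno3 as the only member. By value, 23 of the 35 rows were lower in DdblGata1 libraries, against 50.7% of all genes. The median log2 fold change was -0.28 over the members and -0.01 over all genes tested. The groups did not overlap in 1 member that was higher and 7 that were lower, against 8.98% and 7.34% of all genes. All 8 of these were glycolytic enzyme genes.

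Glycolytic enzyme genes had lower values in DdblGata1 than in wild-type libraries in 15 of 17 rows, and the exceptions were Hk2 and Eno2. Their median log2 fold change was -0.34, against -0.01 over all genes tested. Summed over the list, DdblGata1 replicates 4, 9 and 10 had 1920, 1840 and 1610 CPM, and wild-type replicates 1, 3 and 4 had 2450, 2240 and 2020 CPM. No DdblGata1 library reached the lowest wild-type library in this sum. None of the 17 passed the adjusted edgeR test, and DESeq2 called Eno3 alone.

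**Figure D1:**
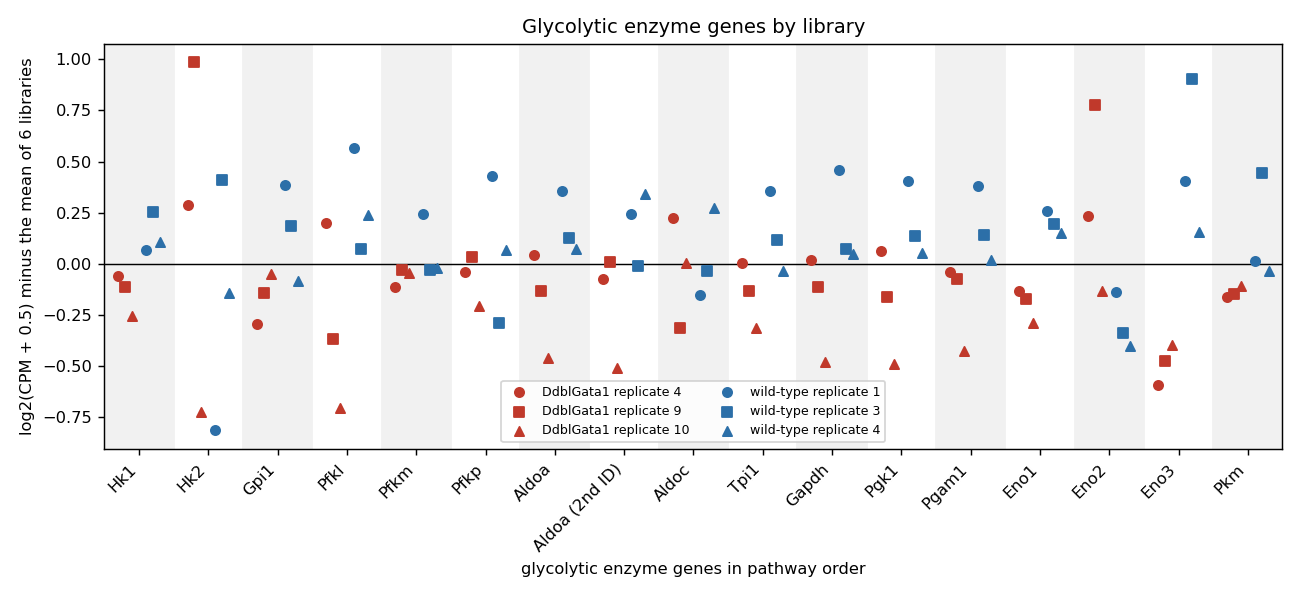
Level of each glycolytic enzyme gene in each library, as log2(CPM + 0.5) minus the mean of the 6 libraries (y axis), for the 17 rows in pathway order (x axis); red points are DdblGata1 and blue points wild-type libraries. DdblGata1 replicate 10 has the lowest median deviation, at -0.31, and wild-type replicate 1 the highest, at 0.35.

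At the entry of the pathway, hexokinase phosphorylates glucose. Hk1, the housekeeping hexokinase, had 98.2, 94.6 and 85.6 CPM in DdblGata1 replicates 4, 9 and 10, against 107, 122 and 110 CPM in wild-type replicates 1, 3 and 4. Every DdblGata1 library lay below every wild-type library. The log2 fold change was -0.28 ± 0.13 (SE, n = 3 per group, adjusted p = 0.502 by edgeR). Hk2, the inducible hexokinase, ranged from 4.52 to 15.9 CPM in DdblGata1 and from 4.21 to 10.5 CPM in wild-type libraries, and its log2 fold change of 0.47 ± 0.49 was smaller than its SE.

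Gpi1, which turns glucose 6-phosphate into fructose 6-phosphate, had 164, 182 and 194 CPM in DdblGata1 libraries and 263, 229 and 190 CPM in wild-type libraries (log2 fold change -0.34 ± 0.16, adjusted p = 0.508). The groups overlapped through DdblGata1 replicate 10 and wild-type replicate 4. Pfkl, the liver-type subunit of phosphofructokinase, had 38.1, 25.5 and 20.1 CPM in DdblGata1 libraries and 49.2, 34.8 and 39.2 CPM in wild-type libraries. Its log2 fold change of -0.56 ± 0.25 (adjusted p = 0.496) was the lowest among the members that act before the aldolase step. It was -0.85 without DdblGata1 replicate 4, where DESeq2 called Pfkl (adjusted p = 0.0126), and -0.30 with the 2 deposited surrogate variables as covariates. Over 21 alternatives its adjusted p ranged from 0.0126 to 0.95. The muscle and platelet subunits stood closer between groups. Pfkm had 59.4 to 62.9 CPM in DdblGata1 and 62.8 to 76 CPM in wild-type libraries, and Pfkp had 73.9 to 87.3 CPM in DdblGata1 and 69.7 to 115 CPM in wild-type libraries.

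Aldolase cuts the 6-carbon sugar. Aldoa, its main form here, had 342, 303 and 241 CPM in DdblGata1 libraries and 425, 362 and 349 CPM in wild-type libraries. The groups did not overlap, with a log2 fold change of -0.36 ± 0.18 (adjusted p = 0.515). The other Aldoa identifier, a neighbouring locus whose reads cannot be separated with certainty from those of the main one, held 0.194 to 0.496 CPM in DdblGata1 and 0.483 to 0.753 CPM in wild-type libraries. Aldoc, the form best known from brain, had 4.24 to 6.38 CPM in DdblGata1 and 4.79 to 6.61 CPM in wild-type libraries. Tpi1, which interconverts the 3-carbon products, had 157, 143 and 126 CPM in DdblGata1 libraries and 201, 170 and 153 CPM in wild-type libraries (log2 fold change -0.29 ± 0.16, adjusted p = 0.535). Only wild-type replicate 4 lay within the range of the DdblGata1 libraries for Tpi1.

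The energy-yielding steps followed with a similar size of difference. Gapdh, the dehydrogenase that makes NADH, had 265, 242 and 187 CPM in DdblGata1 libraries and 359, 275 and 270 CPM in wild-type libraries (log2 fold change -0.38 ± 0.19, adjusted p = 0.517). Pgk1, the first ATP-forming kinase of the pathway, had 137, 117 and 93.3 CPM in DdblGata1 libraries and 174, 144 and 136 CPM in wild-type libraries (log2 fold change -0.39 ± 0.18, adjusted p = 0.502). Pgam1, phosphoglycerate mutase, had 141, 138 and 108 CPM in DdblGata1 libraries and 189, 160 and 147 CPM in wild-type libraries (log2 fold change -0.36 ± 0.17, adjusted p = 0.502). In Gapdh and Pgam1 the groups did not overlap, and in Pgk1 DdblGata1 replicate 4 lay just above wild-type replicate 4. DdblGata1 replicate 10 was the lowest of the 6 libraries in all 3 genes, and wild-type replicate 1 the highest.

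The enolases, which make phosphoenolpyruvate, did not share a direction. Eno1 (chr4:150236721-150248879 in GRCm38), the form found in most cells, had 106, 103 and 95.1 CPM in DdblGata1 libraries and 139, 133 and 129 CPM in wild-type libraries. The mean in the gene table was 101 ± 5.79 CPM in DdblGata1 and 134 ± 4.89 CPM in wild-type libraries (SD, n = 3 each). Its log2 fold change was -0.40 ± 0.13, with an unadjusted edgeR p of 0.0129 and an adjusted p of 0.424. DESeq2 called Eno1 without DdblGata1 replicate 4 (log2 fold change -0.44, adjusted p = 0.0269), and over 21 alternatives its adjusted p ranged from 0.0269 to 0.899. Eno3 (chr11:70657202-70662513), the muscle enolase, had 5.1, 5.59 and 5.91 CPM in DdblGata1 libraries and 10.7, 15.3 and 8.93 CPM in wild-type libraries. Every wild-type library was above every DdblGata1 library, and the log2 fold change of -1.07 ± 0.26 was the largest in size of any member. The adjusted p was 0.384 by edgeR and 0.0235 by DESeq2, and over 21 alternatives it ranged from 0.00783 to 0.899. DESeq2 no longer called Eno3 when DdblGata1 replicate 9, DdblGata1 replicate 10, wild-type replicate 1 or wild-type replicate 3 was left out. Eno2 (chr6:124760053-124769673), the neuronal enolase, went the other way, with 22.7, 33.3 and 17.5 CPM in DdblGata1 libraries and 17.4, 15.1 and 14.4 CPM in wild-type libraries. Its log2 fold change was 0.64 ± 0.25 (unadjusted p = 0.0323, adjusted p = 0.467), and DdblGata1 replicate 10 was close to wild-type replicate 1. Without DdblGata1 replicate 9, the highest library, it was 0.34. Without wild-type replicate 3 or wild-type replicate 4 it was 0.62 or 0.59. In each of these fits Eno2 no longer had an unadjusted edgeR p under 0.05.

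The values of Eno3 and Eno2, and the spread of Eno1, rested on how the gene table was scaled. In that table, TPM, which divides reads by transcript length, had been summed over a gene's transcripts and multiplied back by a mean length, so a few reads on a short transcript weigh more than the same reads on a long one. Transcripts under 1000 bases took 2.18%, 2.78% and 5.53% of Eno3 reads in DdblGata1 replicates 4, 9 and 10, and 6.06%, 22.3% and 9.39% in wild-type replicates 1, 3 and 4. Of Eno3 TPM, the same transcripts made up 17.7%, 14.5% and 30.2% in DdblGata1 libraries and 38.6%, 71.6% and 46.8% in wild-type libraries. Short transcripts were a small part of the reads and a large part of the TPM, more so in wild-type libraries. Eno3-207, a transcript of 568 bases, had 0, 6.23 and 1.57 estimated counts in DdblGata1 libraries and 14.1, 36.3 and 7.77 in wild-type libraries. All Eno3 transcripts together had 171, 224 and 200 estimated counts in DdblGata1 libraries and 343, 246 and 233 in wild-type libraries. These sums are not scaled for depth, and those of DdblGata1 replicate 9 and wild-type replicate 4 were close. The gene table lists 139, 169 and 183 counts for the DdblGata1 libraries and 352, 443 and 273 for the wild-type libraries. With plain sums of estimated counts, the log2 fold change of Eno3 was -0.39 (unadjusted p = 0.0749) and that of Eno2 0.22 (unadjusted p = 0.219). Both kept their sign, and neither had an unadjusted p under 0.05 in that counting. Eno1 had a log2 fold change of -0.39 with plain sums, close to that in the deposited table, but its spread was larger in plain sums, at 103 ± 20.7 CPM in DdblGata1 and 135 ± 16.6 CPM in wild-type libraries (SD, n = 3 each), and the groups overlapped. Transcripts under 1000 bases made up 55.2% to 71.3% of Eno1 TPM in DdblGata1 and 55.9% to 66.3% in wild-type libraries.

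**Figure D2:**
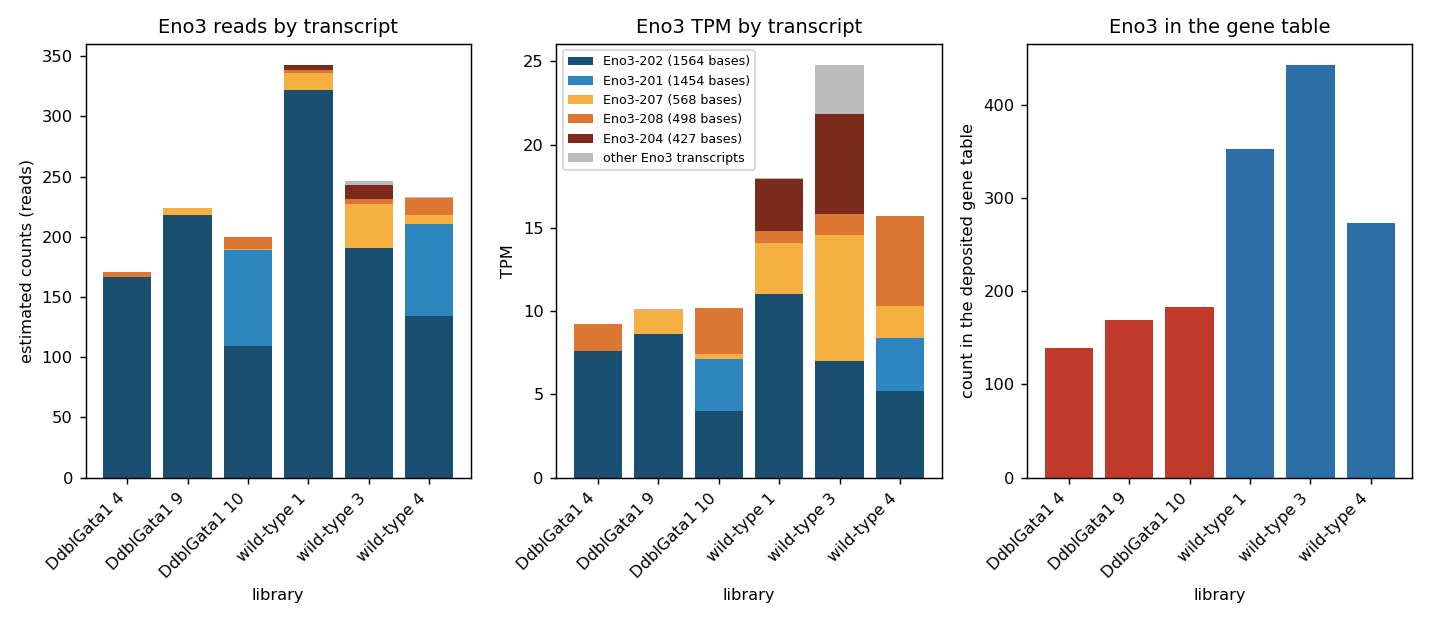
Eno3 in each library: estimated counts by transcript (left), TPM by transcript (middle) and the count in the deposited gene table (right), with DdblGata1 libraries left of wild-type libraries on each x axis. Transcripts under 1000 bases hold 22.3% of the reads and 71.6% of the TPM in wild-type replicate 3.

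Retrocopies of several members were given reads of their own. Processed copies of Gapdh, Eno1, Pgk1 and Pgam1 lie elsewhere in the genome, and how reads were divided between a gene and its copy is uncertain. Gm13394, a processed pseudogene of Gapdh in the annotation, had 6484, 6510 and 5093 estimated counts in DdblGata1 libraries and 11814, 8441 and 7563 in wild-type libraries, about as many as Gapdh itself. Eno1b, a retrogene of Eno1, had 2149, 1992 and 1585 estimated counts in DdblGata1 libraries and 3296, 2572 and 2467 in wild-type libraries. Summed with its copies, Eno1 had 215, 191 and 144 CPM in DdblGata1 libraries and 270, 241 and 222 CPM in wild-type libraries. Gapdh with its copies had 486, 456 and 384 CPM in DdblGata1 libraries and 681, 613 and 496 CPM in wild-type libraries. In both sums every DdblGata1 library lay below every wild-type library. The log2 ratio of the group means was -0.42 for Eno1 with copies and -0.39 for Eno1 alone, both in plain sums. For Gapdh it was -0.43 with copies and -0.34 alone, for Pgk1 -0.39 with copies and -0.35 alone, and for Pgam1 -0.36 with copies and -0.33 alone. With copies included, the groups of all 4 genes did not overlap, whereas in plain sums of the gene alone those of Eno1 and Pgk1 did. For Pgk1 this rested on the copy Gm5537, with 417 estimated counts in wild-type replicate 4 and 0 to 4 in every other library. It raised wild-type replicate 4 from 129 to 143 CPM, against 129 CPM in DdblGata1 replicate 4. No share of all genes was computed for sums with copies.

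Pkm (chr9:59656368-59679375 in GRCm38), pyruvate kinase of most tissues, ends the pathway. Its 283, 286 and 294 CPM in DdblGata1 libraries lay below the 320, 431 and 310 CPM in wild-type libraries, with a log2 fold change of -0.30 ± 0.17 (adjusted p = 0.55). Wild-type replicate 3 was far above the other wild-type libraries in the gene table, and without it the log2 fold change was -0.13. Pkm-208, a transcript of 356 bases, had 0, 0 and 45.5 estimated counts in DdblGata1 libraries and 0, 55.2 and 0 in wild-type libraries, and made up 55.2 TPM in DdblGata1 replicate 10 and 69.7 TPM in wild-type replicate 3. With plain sums the log2 fold change was -0.41 (unadjusted p = 0.0237).

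Pkm makes the M1 or the M2 enzyme by using 1 of a pair of alternative exons of equal length. M1 is the form of muscle and other differentiated tissues, and M2, which is allosterically regulated, that of proliferating and many non-muscle cells. The exons lie at chr9:59675029-59675195 (M1) and chr9:59675568-59675734 (M2) on the + strand of GRCm38, and each is 167 bases long. They are shown as the part in which the M1 and M2 enzymes differ. The annotated transcripts counted as M1 and M2 are 2041 and 2432 bases long and so differ outside these exons too, and estimated counts use reads from their whole length. Over the 167 bases of the M1 and M2 exons, 103 positions are identical (61.7%) and 64 differ, and the capitals mark the positions that differ.
M1: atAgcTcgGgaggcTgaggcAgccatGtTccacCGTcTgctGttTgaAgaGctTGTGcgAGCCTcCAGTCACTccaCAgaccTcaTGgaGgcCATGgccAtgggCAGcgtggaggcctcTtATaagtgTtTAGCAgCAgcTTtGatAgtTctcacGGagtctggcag
M2: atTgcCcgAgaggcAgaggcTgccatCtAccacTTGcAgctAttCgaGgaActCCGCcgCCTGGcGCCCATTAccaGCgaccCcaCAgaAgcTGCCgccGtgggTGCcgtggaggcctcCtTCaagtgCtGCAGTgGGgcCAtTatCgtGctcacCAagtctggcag
The sequences are those of the GENCODE M21 transcripts. The M1 transcript had 1453, 1405 and 1197 estimated counts in DdblGata1 libraries and 2977, 2420 and 1894 in wild-type libraries. The M2 transcript had 6598, 6488 and 5635 estimated counts in DdblGata1 libraries and 9492, 8377 and 7924 in wild-type libraries. M2 was the major form in every library. Its share of the TPM of both transcripts was 78.9%, 79.1% and 79.4% in DdblGata1 libraries and 72.5%, 74.1% and 77.5% in wild-type libraries. The means were 79.2% ± 0.25 in DdblGata1 and 74.7% ± 2.51 in wild-type libraries (SD, n = 3 each), a difference of 4.46 percentage points. The groups did not overlap, and the exact two-sided permutation test gave p = 0.1, the smallest that 3 against 3 libraries can give (adjusted p = 0.591 over 13 shares). Tested on the counts of all Pkm transcripts in edgeR, transcript usage gave an adjusted p of 1.0.

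Smooth muscle markers were lower by value in the same libraries. Summed over 8 smooth muscle markers, the level was 5860, 9040 and 7360 CPM in DdblGata1 libraries and 13200, 13500 and 8460 CPM in wild-type libraries, with values lower in DdblGata1 for all 8, against 50.7% of all genes, and an unadjusted p under 0.05 for 4, against 4.23% of all genes. The 7 pericyte markers summed to 1680, 1780 and 1680 CPM in DdblGata1 libraries and to 2590, 2280 and 2140 CPM in wild-type libraries. The part of these cells in the values of Eno3, of the M1 transcript and of the other glycolytic genes was not tested.

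The order of the libraries within the glycolytic list was uneven. Wild-type replicate 1 held the highest value of 10 of the 17 rows (58.8%), against 24.9% of all genes, and DdblGata1 replicate 10 the lowest value of 9 (52.9%), against 23.6% of all genes. Median deviations from the mean of the 6 libraries were -0.04, -0.13 and -0.31 in DdblGata1 replicates 4, 9 and 10, and 0.35, 0.13 and 0.05 in wild-type replicates 1, 3 and 4 (log2 scale). Without wild-type replicate 1, 14 of 17 rows were lower in DdblGata1 libraries, and their median log2 fold change was -0.27. Without DdblGata1 replicate 10, 15 of 17 were lower, with a median of -0.26. Over all 6 fits that leave out a library, the median ranged from -0.41 to -0.26. It was -0.23 with the 2 deposited surrogate variables as covariates and -0.34 with plain sums. With plain sums, 7 members had an unadjusted p under 0.05, all lower, namely Hk1, Gpi1, Pfkl, Aldoa, Tpi1, Pgk1 and Pkm. Eno1 and Eno3 were no longer among them. The share of all genes under that threshold with plain sums is not given here, so these 7 cannot be read as an excess.

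**Figure D3:**
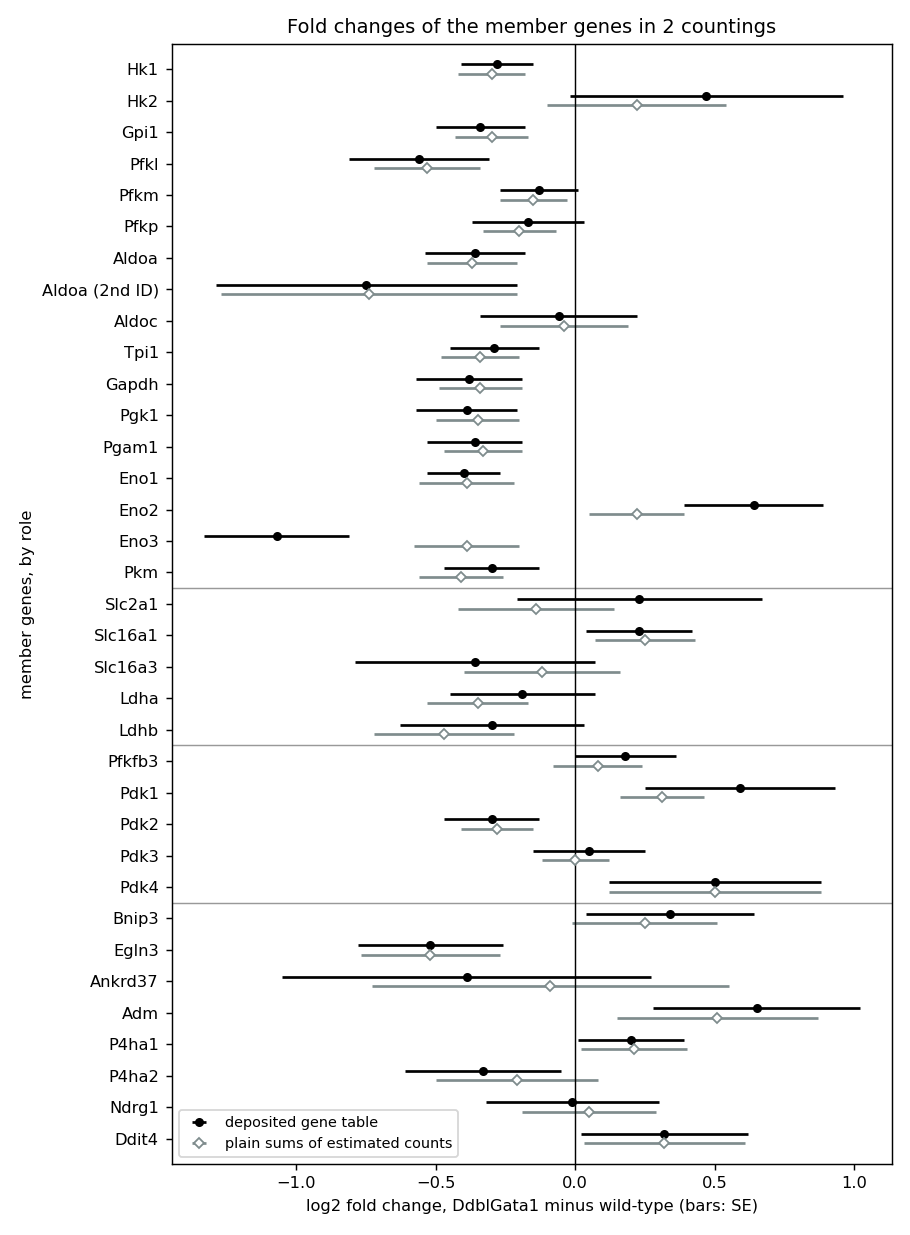
Log2 fold change, DdblGata1 minus wild-type, with its SE (x axis) for the 35 member rows grouped by role (y axis), from the deposited gene table (black) and from plain sums of estimated counts (grey). The countings lie close together for most members and differ by over 0.5 for Eno3.

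Genes of glucose uptake, lactate formation and lactate transport showed no common direction in the gene table. Of the 5, 2 had higher and 3 lower values in DdblGata1 than in wild-type libraries, none had an unadjusted p under 0.05 and all overlapped, with a median log2 fold change of -0.19. Ldha, the subunit that favours lactate formation, had 174 to 241 CPM in DdblGata1 and 160 to 317 CPM in wild-type libraries. Its highest and lowest values in the gene table were both wild-type, an order that rested on the scaling. Transcripts under 1000 bases made up 22.1%, 43.1% and 67.0% of Ldha TPM in DdblGata1 libraries and 16.9%, 60.6% and 18.6% in wild-type libraries. Estimated counts, not scaled for depth, were 5717, 5678 and 4446 in DdblGata1 libraries and 8959, 6113 and 6351 in wild-type libraries. Ldhb, the heart-type subunit, had 35 to 93.7 CPM in DdblGata1 and 64.4 to 93.3 CPM in wild-type libraries (log2 fold change -0.30 ± 0.33). Slc2a1, the basal glucose carrier GLUT1, had 5.23 to 18.8 CPM in DdblGata1 and 8.05 to 13.4 CPM in wild-type libraries, so that the DdblGata1 libraries spread on either side of the wild-type range. Slc16a1, the lactate and pyruvate carrier MCT1, had 86 to 122 CPM in DdblGata1 and 69.8 to 97 CPM in wild-type libraries (log2 fold change 0.23 ± 0.19). Slc16a3, the lactate exporter MCT4, was a low gene, with 2.45 to 6.42 CPM in DdblGata1 and 3.37 to 6.83 CPM in wild-type libraries. Counted as plain sums, all of these genes but Slc16a1 were lower by value in DdblGata1 libraries. Log2 fold changes were then -0.35 ± 0.18 for Ldha, -0.47 ± 0.25 for Ldhb and -0.12 ± 0.28 for Slc16a3. That of Slc2a1 was -0.14 ± 0.28, against 0.23 in the gene table, and that of Slc16a1 was 0.25 ± 0.18. None of the 5 had an unadjusted edgeR p under 0.05 in that counting either.

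Slc16a3 was the member in which transcripts differed most. Its transcript Slc16a3-202 (2386 bases) had 0 estimated counts in each of the 3 DdblGata1 libraries, where a count of 0 allows up to 3, against 10.5, 17.6 and 10.9 in wild-type libraries. The main transcript, Slc16a3-201, had 75.7, 91.9 and 107 estimated counts in DdblGata1 libraries and 87.2, 81.4 and 138 in wild-type libraries. The test of transcript usage called 24 of 9525 genes (0.252%) and none of the 24 members tested, with an adjusted p of 0.233 for Slc16a3 by the Simes method in edgeR. The gene-level F test of the same fit called Slc16a3 (adjusted p = 0.00823) among 50 genes.

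The regulators were mostly higher by value in DdblGata1 libraries, in 4 of 5. Their median log2 fold change was 0.18, but none had an unadjusted p under 0.05 and every pair of groups overlapped. The median was 0.08 with plain sums and 0.03 with the surrogate variables. Pfkfb3 makes fructose 2,6-bisphosphate, the activator of phosphofructokinase, and had 76.3 to 92.2 CPM in DdblGata1 and 61.6 to 90.8 CPM in wild-type libraries. The 4 pyruvate dehydrogenase kinases, which shut the entry of pyruvate into mitochondria, differed from each other. Pdk1, a classic hypoxia target, had 16.7 to 42.1 CPM in DdblGata1 and 14.3 to 21.5 CPM in wild-type libraries (log2 fold change 0.59 ± 0.34, adjusted p = 0.553). DdblGata1 replicate 9 stood highest, and without it the log2 fold change was 0.12. With plain sums over all 6 libraries the log2 fold change of Pdk1 was 0.31 ± 0.15 (unadjusted p = 0.0696 by edgeR). Pdk2, the broadly expressed kinase, had 35.9 to 48.4 CPM in DdblGata1 and 45.3 to 54.5 CPM in wild-type libraries (log2 fold change -0.30 ± 0.17, adjusted p = 0.541). Pdk3 was even, with 20.4 to 31 CPM in DdblGata1 and 23.1 to 23.4 CPM in wild-type libraries. Pdk4, induced by fasting and by glucocorticoids, had 26.1 to 67.6 CPM in DdblGata1 and 20.6 to 45.6 CPM in wild-type libraries (log2 fold change 0.50 ± 0.38, adjusted p = 0.638). That value was 0.15 without DdblGata1 replicate 10, 0.24 without wild-type replicate 4 and 0.08 with the surrogate variables. Over 14 glucocorticoid response genes, Pdk4, Ddit4 and Ndrg1 among them, the summed level was 802, 1070 and 1290 CPM in DdblGata1 libraries and 698, 757 and 694 CPM in wild-type libraries. Its part in Pdk4 was not tested.

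The 8 hypoxia targets split evenly, 4 higher and 4 lower by value in DdblGata1 libraries. Their median log2 fold change was 0.10, none had an unadjusted p under 0.05, and all overlapped between groups. The sign of the median was not stable, at -0.02 without DdblGata1 replicate 4 or replicate 10, 0.20 without DdblGata1 replicate 9 or wild-type replicate 4, and 0.01 with the surrogate variables. Egln3, the oxygen-sensing prolyl hydroxylase that the hypoxia-inducible factors themselves induce, had 31.1, 50.6 and 58.1 CPM in DdblGata1 libraries and 83, 64.2 and 53.4 CPM in wild-type libraries. The groups overlapped through DdblGata1 replicate 10 and wild-type replicate 4, with a log2 fold change of -0.52 ± 0.26 (adjusted p = 0.517). DESeq2 with the deposited surrogate variables called it (log2 fold change -0.67, adjusted p = 0.00459), and over 21 alternatives its adjusted p ranged from 0.00459 to 0.899. Adm, the vasodilator peptide adrenomedullin, went the other way, with 30 to 55.8 CPM in DdblGata1 and 15 to 40.3 CPM in wild-type libraries (log2 fold change 0.65 ± 0.37, adjusted p = 0.544). Bnip3, a mitophagy receptor, had 15.5 to 37.5 CPM in DdblGata1 and 17.4 to 22.6 CPM in wild-type libraries. Ddit4, an inhibitor of mTORC1, had 17.7 to 39.6 CPM in DdblGata1 and 17.3 to 25.7 CPM in wild-type libraries. For both Bnip3 and Ddit4 the highest of the 6 values was that of DdblGata1 replicate 10. The collagen prolyl hydroxylase subunits had opposite signs. P4ha1 had 160 to 216 CPM in DdblGata1 and 133 to 193 CPM in wild-type libraries (log2 fold change 0.20 ± 0.19), and P4ha2 had 62.2 to 138 CPM in DdblGata1 and 100 to 142 CPM in wild-type libraries (log2 fold change -0.33 ± 0.28). Ndrg1, a stress-induced gene of the same response, had nearly equal means of 62.1 ± 22.6 CPM in DdblGata1 and 62.7 ± 20.4 CPM in wild-type libraries (SD, n = 3 each). Ankrd37, an ankyrin repeat gene, was near the limit of detection, at 0.44 to 1.1 CPM in DdblGata1 and 0.36 to 1.86 CPM in wild-type libraries.

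**Figure D4:**
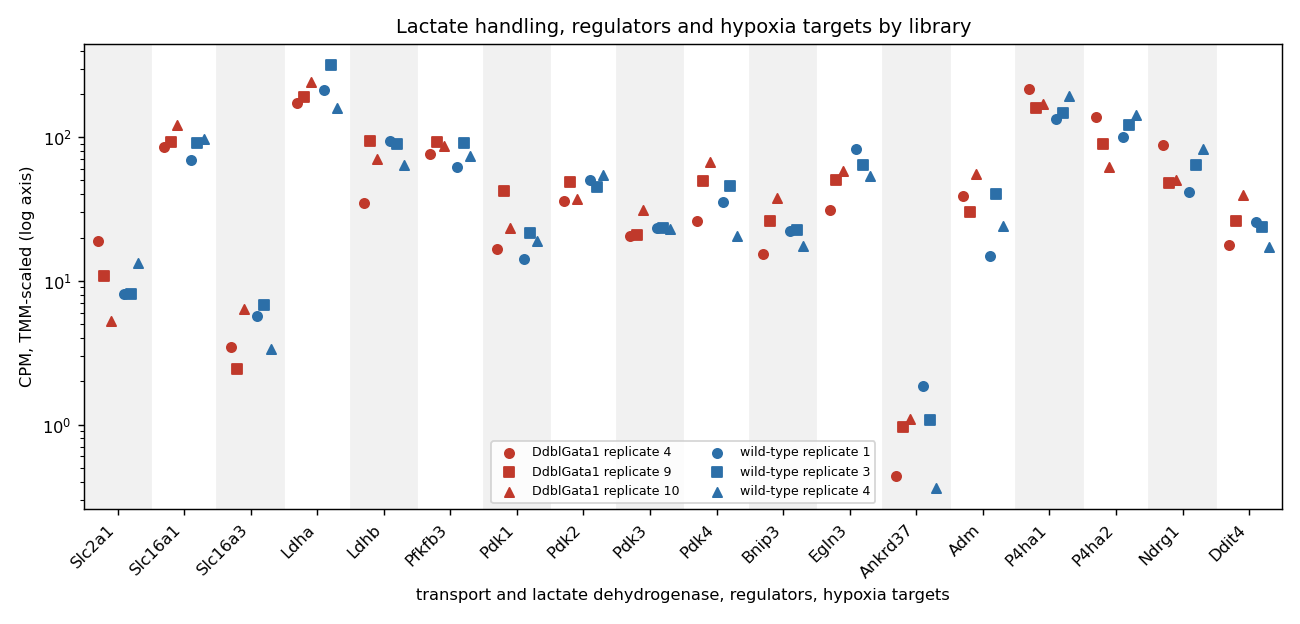
CPM (y axis, log scale) of the transport and lactate dehydrogenase genes, the regulators and the hypoxia targets (x axis) in each library, with DdblGata1 in red left of wild-type in blue. The groups overlap in all 18 genes.

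Levels between forms of an enzyme can be compared per length, in TPM. Gapdh was the most abundant member, with 1500 ± 295 TPM in DdblGata1 and 1840 ± 301 TPM in wild-type libraries (SD, n = 3 each), although 89.9% to 93.3% of its TPM came from transcripts under 1000 bases, and its copy Gm13394 is not in this value. Aldoa supplied 98.1% to 98.8% of the TPM of Aldoa and Aldoc in DdblGata1 libraries and 98.4% to 99.0% in wild-type libraries. Eno1 supplied 81.6% to 86.4% of enolase TPM in DdblGata1 and 85.6% to 88.9% in wild-type libraries, without its retrogene Eno1b. Hk2 supplied 3.97% to 11.6% of the TPM of Hk1 and Hk2 in DdblGata1 and 2.98% to 6.28% in wild-type libraries. At these steps a single form led in every library. Among the phosphofructokinase subunits, Pfkp led with 52.6% ± 1.84 in DdblGata1 and 50.3% ± 3.34 in wild-type libraries, before Pfkm and then Pfkl. Ldhb made up 23.3%, 42.7% and 30.7% of the TPM of Ldha and Ldhb in DdblGata1 libraries and 39.8%, 29.7% and 37.7% in wild-type libraries. Of their estimated counts, Ldhb made up 16.6%, 29.7% and 30.8% in DdblGata1 libraries and 27.4%, 30.4% and 22.9% in wild-type libraries. Pdk2 was the leading kinase, with 39.4% ± 6.99 of the TPM of Pdk1 to Pdk4 in DdblGata1 and 49.6% ± 6.1 in wild-type libraries, except in DdblGata1 replicate 10, where Pdk4 had 32.4% and Pdk2 31.8%. Slc16a3 made up 8.59% ± 2.65 of the TPM of Slc16a1 and Slc16a3 in DdblGata1 and 13.1% ± 4.71 in wild-type libraries. Of their estimated counts, Slc16a3 made up 4.54%, 3.58% and 3.15% in DdblGata1 libraries and 4.28%, 4.32% and 5.36% in wild-type libraries. The difference of the means was -4.48 percentage points in TPM and -0.896 in estimated counts. Of 13 shares compared, the M2 share of Pkm was the only one without overlap. Exact permutation p-values of the other shares were 0.2 to 1.0, and adjusted values were 0.591 or more.

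**Figure D5:**
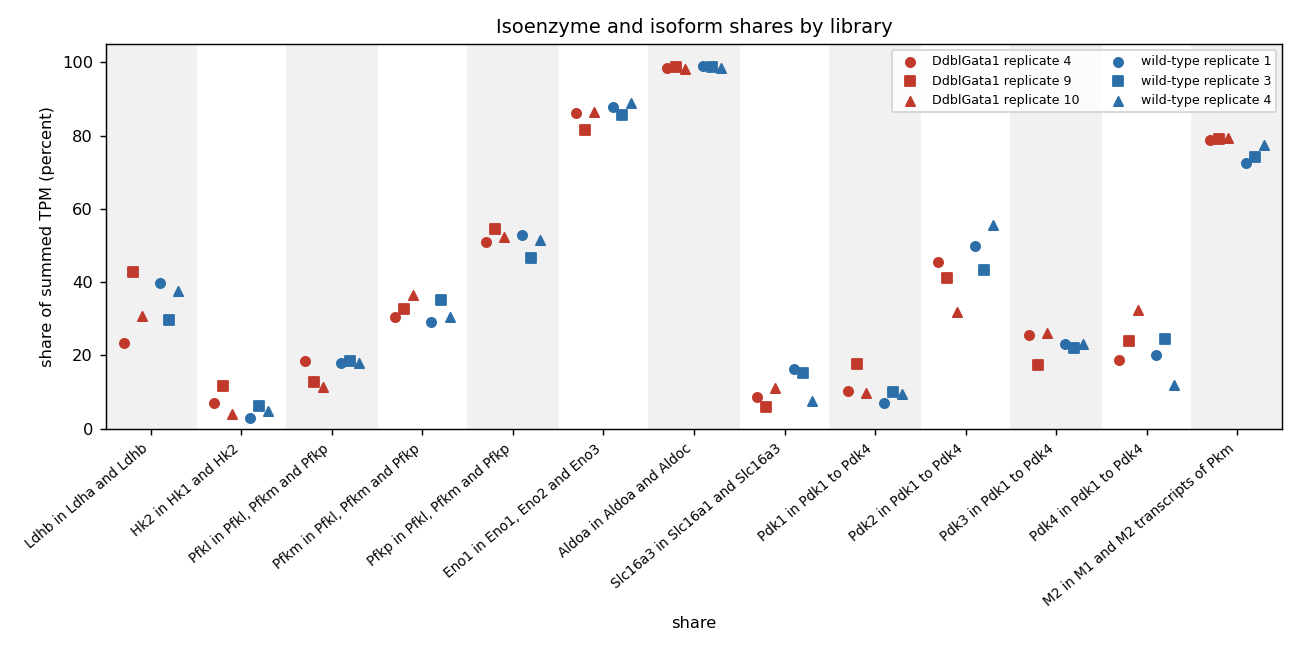
Share of summed TPM in percent (y axis) for the 13 isoenzyme and isoform shares (x axis) in each library, with DdblGata1 in red left of wild-type in blue. Only in the M2 share of Pkm, at the right, do the groups not overlap.

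Other genes of the same pathways were read from further lists. Of 36 other genes of glycolysis and glucose uptake, 28 were in the table. By value 8 were higher and 20 lower in DdblGata1 libraries, against 50.7% of all genes lower, and the median log2 fold change was -0.19. Bpgm and Slc16a7 had an unadjusted p under 0.05, both lower, against 4.23% of all genes lower. Bpgm, which makes 2,3-bisphosphoglycerate and is best known from red cells, had 15.4, 20.7 and 17 CPM in DdblGata1 libraries and 33.1, 26.2 and 32.2 CPM in wild-type libraries. Its groups did not overlap, and its log2 fold change was -0.79 ± 0.19 (adjusted p = 0.384 by edgeR and 0.0222 by DESeq2). It was of like size with plain sums, at -0.74. The erythroid markers summed to 42.5, 236 and 122 CPM in DdblGata1 libraries and to 320, 264 and 195 CPM in wild-type libraries, and their part in Bpgm was not tested. Slc16a7, the carrier MCT2, had 14.1 ± 3.22 CPM in DdblGata1 and 19.7 ± 1.97 CPM in wild-type libraries, a log2 fold change of -0.48 that was -0.11 with plain sums.

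Among 13 genes of pyruvate entry, the median log2 fold change was -0.06. An unadjusted p under 0.05 was found for 2, both lower, against 4.23% of all genes lower. Mpc1, a subunit of the mitochondrial pyruvate carrier, had 29.7, 41.1 and 31.4 CPM in DdblGata1 libraries and 54.1, 43.3 and 50.8 CPM in wild-type libraries (log2 fold change -0.54 ± 0.18, adjusted p = 0.436). All DdblGata1 libraries lay below all wild-type libraries. Me2, the mitochondrial malic enzyme, had 19.0 ± 0.497 CPM in DdblGata1 and 25.7 ± 3.28 CPM in wild-type libraries (log2 fold change -0.44 ± 0.17, adjusted p = 0.461).

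Of 11 oxygen sensing genes and hypoxia-inducible factors, 10 were in the table, with a median log2 fold change of -0.13 and none at an unadjusted p under 0.05. Of 44 other hypoxia targets, 43 were in the table, and 5 were higher and 4 lower at an unadjusted p under 0.05, against 6.03% and 4.23% of all genes, with a median of 0.16. Those of smallest p included both directions. Tmem45a, a membrane protein gene, had 95.9, 74.5 and 94.2 CPM in DdblGata1 libraries and 34.4, 55.1 and 52.8 CPM in wild-type libraries (log2 fold change 0.89 ± 0.21, adjusted p = 0.384 by edgeR and 0.0253 by DESeq2). Edn1, the vasoconstrictor endothelin, had 7.77, 8.97 and 15 CPM in DdblGata1 libraries and 3.39, 5.52 and 3.73 CPM in wild-type libraries (log2 fold change 1.33 ± 0.34, adjusted p = 0.384 by edgeR and 0.0274 by DESeq2). Neither gene overlapped between groups. Gys1, muscle glycogen synthase, had 23.6, 20.1 and 16.3 CPM in DdblGata1 libraries and 34.9, 39 and 27.4 CPM in wild-type libraries (log2 fold change -0.76 ± 0.21, adjusted p = 0.385). Wsb1 and Insig2 had log2 fold changes of 0.68 ± 0.25 and 0.78 ± 0.30, and that of Insig2 was 0.03 with plain sums. Immediate early genes, which are also induced by tissue dissociation, were higher by value in 22 of 23, and 17 of them had an unadjusted p under 0.05, against 6.03% of all genes. Summed, they had 9390, 11500 and 10000 CPM in DdblGata1 libraries and 6890, 7140 and 7170 CPM in wild-type libraries. Endothelial markers, relevant to Edn1, summed to 110, 118 and 169 CPM in DdblGata1 libraries and to 58.9, 80.1 and 72.2 CPM in wild-type libraries. Of these 7 markers 3 were higher and 4 lower by value in DdblGata1 libraries, and their log2 fold changes ranged from -0.68 to 1.26 around a median of -0.08. The part of either in these hypoxia targets was not tested.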

How the data were processed

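Bulk RNA from 3 DdblGata1 and 3 wild-type samples was made into stranded libraries from 100 ng of total RNA, per the labels' protocols. Kallisto, DESeq2, bcl2fastq 2.2 and R 4.2.2 are named in the submitters' processing notes, as are mm10 and GRCm38.p6. Their roles and the strand setting were not stated there.

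Estimated counts (expected counts) of 15238 genes were deposited in 1 table, each gene with at least 10 counts in at least 3 libraries. The authors' transcript files give kallisto's estimated counts, TPM and other values, namely effective lengths, of 115270 transcripts. Per-gene TPM scaled back by a mean length gave 99.7% of the table's values within 1% plus 1 count, and 26.2% equalled plain sums of estimated counts. For each library the deposited sample sheet holds a size factor, which is a ratio, and 2 surrogate variables, each a score made by a method that was not stated.

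All genes were fitted with edgeR 4.0.16 in R 4.3.3 (rounded counts, TMM, filterByExpr, robust quasi-likelihood, no covariate) with Benjamini-Hochberg adjustment at 0.05. CPM are TMM-scaled, and fold changes are DdblGata1 minus wild-type. Transcript usage was tested with diffSpliceDGE on transcripts with at least 10 counts in at least 3 libraries, and 13 isoenzyme shares of TPM by exact permutation. Transcripts were placed with GENCODE M21, and promoter windows came from RefSeq. Copies were genes with at least 50 reads over all libraries and at least 50% of their sampled 31-base words in a member's transcripts. They were added after values were seen. The tests were checked on simulated data.

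Members with an unadjusted edgeR p under 0.05, a DESeq2 call or groups without overlap are given by library, extended to the 12 of smallest p, and other members by range. Of the other pathway lists, genes with an unadjusted p under 0.05 are named, at most 6 per list; some of these are not reported here. A single transcript of Slc16a3, Pkm or Eno3 and the copies were named after their values were seen. Members and lists were chosen with earlier results of these data known. Alternatives were DESeq2 1.42.0, limma 3.58.1 (voom, and trend on log2(TPM + 1)), other scaling and filters, plain sums, the surrogate variables and leaving out each library. DESeq2 with the surrogate variables, or without each library, was added after the data were seen. The depth was 28110454 to 31210800 counts per library, and a count of 0 allows up to 3, which covers counting error only.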

Additional observations from a re-analysis of the deposited data

How the results depend on the processing

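The called genes, 0 by edgeR, numbered 214 by DESeq2 and 449 by DESeq2 with the surrogate variables, and leaving out a library gave 0 to 1 by edgeR and 84, 43, 1025, 106, 239 and 165 by DESeq2, in the order DdblGata1 replicates 9, 10 and 4 and wild-type replicates 1, 3 and 4. At an unadjusted p under 0.05, limma-trend on log2(TPM + 1) had 374 genes lower, and leaving out a library gave 442 to 1465 higher and 376 to 1250 lower by edgeR, or 512 to 1533 higher and up to 1527 lower by DESeq2. Among the members, plain sums gave 0 higher and 7 lower. The surrogate variables gave Eno2 higher and 7 lower, and DESeq2 with them also Eno2 higher and 7 lower. The shares of all genes under that threshold in these fits are not given here. Without single libraries, 0 to 4 members were higher and 2 to 7 lower by edgeR, and up to 10 lower by DESeq2. The most came without DdblGata1 replicate 4. Groups that did not overlap then numbered 1 to 5 higher and 7 to 12 lower. With 2 against 3 libraries groups separate more easily than with 3 against 3. The shares of all genes for these counts are not given here, so they cannot be read as a stronger result. Transcript usage called 0 genes at a share of at least 10% of a gene's counts, 50 genes and 1 member by the F test, and 0 to 54 genes without single libraries.

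The share of Ldhb (difference in percentage points) turned to 0.968 without DdblGata1 replicate 4, in a range of -8.76 to 0.968 without single libraries. That of Pdk3 turned to -1.13 with estimated counts, and ranged from -1.24 to 3.03 without single libraries. The cause of these changes was not tested. The sign of the log2 fold change of the 13 members given by library was the same under all 21 alternatives. Over all genes, 548 of 15127 log2 fold changes (3.62%) differed by more than 0.5 between the deposited table and plain sums.

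No paired analysis was possible because the groups share only replicate number 4. With 3 libraries per group, no exact permutation test can go below 0.1, and with low genes such as Ankrd37 and Slc16a3 the reads limit what can be seen.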

Other observations

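Enzyme genes typical of absorptive epithelium set wild-type replicate 1 apart. Pklr, the liver and red cell pyruvate kinase, had 4.55, 5.76 and 4.55 CPM in DdblGata1 libraries and 21.7, 5.14 and 3.08 CPM in wild-type libraries. Fbp1, the gluconeogenic fructose bisphosphatase, had 6.31, 15.8 and 10.8 CPM in DdblGata1 libraries and 33.1, 6.21 and 5.2 CPM in wild-type libraries. In both genes wild-type replicate 1 was the highest of the 6 libraries, as it was for Epcam, with 19, 25.8 and 19.4 CPM in DdblGata1 libraries and 110, 16.7 and 14 CPM in wild-type libraries. These 3 genes were chosen after their values were seen, and none had an unadjusted edgeR p under 0.05.

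Of the hypoxia-inducible factor subunits, Hif1a had 119, 122 and 132 CPM in DdblGata1 libraries and 98.8, 104 and 126 CPM in wild-type libraries (log2 fold change 0.18 ± 0.14). Its partner Arnt had 118, 116 and 123 CPM in DdblGata1 libraries and 89.2, 107 and 102 CPM in wild-type libraries, without overlap (log2 fold change 0.26 ± 0.13, adjusted p = 0.527 by edgeR). Epas1, which encodes HIF-2α, had 38.4, 28 and 23.8 CPM in DdblGata1 libraries and 23.7, 33.7 and 37.6 CPM in wild-type libraries. Slc2a4, the insulin-responsive glucose carrier of muscle and fat, had 31.4, 48.2 and 38 CPM in DdblGata1 libraries and 59.9, 60.1 and 40 CPM in wild-type libraries (log2 fold change -0.44 ± 0.22, adjusted p = 0.52). With plain sums its log2 fold change was -0.65 (unadjusted p = 0.0204). These genes, too, were chosen after their values were seen.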
